A study of Mus musculus with 12 samples.

Results

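Chemokines are small secreted proteins that guide the movement of leukocytes, glia and progenitor cells, and their receptors are mostly G protein-coupled receptors on the cells that respond. The genes described here are 9 members of this family, CXCL12, CXCR4, ACKR3, CXCL16, CX3CL1, CXCL14, CCL2, CCL3 and CCR2, which were chosen from their values in the same genotype comparison as is given below, so that their differences are a description and were given no test. Of the 9 members, 8 were listed above the lesion, among 13647 gene rows, and the same 8 below it, among 12338 gene rows. CCR2, the main receptor of CCL2 on monocytes, was listed at neither site and has no value here.

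Bulk RNA sequencing was done on spinal cord segments of male mice with human ApoE4 that had received a contusion at thoracic vertebra 9 at 4 months of age. Tissue was taken 14 days later just above (rostral) and just below (caudal) the lesion epicenter. The 12 libraries make up 4 groups of 3, at each site one of mice labelled homozygous for synaptojanin (synj1+/+) and one of mice labelled heterozygous (synj1+/-, with 1 inactive synj1 allele). All 4 groups carried ApoE4 and a contusion, so no value here shows the effect of the injury or of ApoE4. The animal numbers in the study's methods imply that the segments on either side of the lesion came from the same mice. No sample label pairs the segments, and the sites are not treated as independent. Each group has 1 value per gene that combines its 3 libraries, in FPKM (read density scaled to transcript length and library size) with 1 added. The sites were normalized apart from each other, so levels set across sites rest on that scaling. The spread between libraries could not be computed from combined values, so they are given without error, and no test was run here; the authors' own p-values in the same table were not used.

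SYNJ1, the gene with the inactive allele, was higher in the group labelled synj1+/- at both sites, 1.26-fold above and 1.40-fold below, which runs against the labels, although genotypes were checked by PCR per the study's methods. Directions are given by the labels as they stand. APOE, the gene row of apolipoprotein E, was 1.40-fold lower above the lesion and 1.18-fold higher below it in the group labelled synj1+/-. The mice carry human ApoE4 and the reads were aligned to the mouse genome, so how far this row measures the human transcript is not known. The astrocyte gene GFAP, the neuronal gene SNAP25 and the oligodendrocyte gene MOBP were between 5239 and 12975 in the 4 groups. In a bulk sample, fewer cells of a type and less RNA per cell cannot be told apart.

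CXCL12 is a homeostatic chemokine made by stromal, endothelial and meningeal cells that retains leukocytes and attracts progenitor cells. Its signalling receptor is CXCR4, while ACKR3, an atypical receptor, binds and removes it. CCL2 and CCL3 are inflammatory chemokines that draw in monocytes and other leukocytes. CXCL16 and CX3CL1 (fractalkine) are both anchored in the membrane and can be shed, and neurons are known for CX3CL1 while microglia carry its receptor CX3CR1. CXCL14 is a homeostatic chemokine expressed in several tissues, the nervous system included.

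In the GENCODE annotation of GRCm38, CXCL12 lies on chromosome 6 (117168535 to 117181367), CXCR4 on chromosome 1 (128588199 to 128592293) and ACKR3 on the same chromosome (90203980 to 90216751). CXCL16 (70453983 to 70459984), CCL2 (82035571 to 82037453) and CCL3 (83647844 to 83649355) lie on chromosome 11, the last 2 at a distance of 1.61 Mb. CX3CL1 lies on chromosome 8 (94772009 to 94782427), CXCL14 on chromosome 13 (56288643 to 56296551) and CCR2 on chromosome 9 (124101950 to 124113557).

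The 100 bases before the RefSeq start site (GRCm38.p6) are shown for CXCL12, for both of its receptors and for CCL3, since these 4 genes were all lower below the lesion in mice labelled synj1+/- and their promoters differ in letters. Each is written 5′ to 3′ on the strand of its gene, and capitals mark matches to TATAAA (the TATA box) or CCGCCC (the GC box) on either strand.
CXCL12 (chr6:117168435-117168534, plus strand): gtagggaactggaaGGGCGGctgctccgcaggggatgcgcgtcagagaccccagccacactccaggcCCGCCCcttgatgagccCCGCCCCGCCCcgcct
CXCR4 (chr1:128592300-128592399, minus strand): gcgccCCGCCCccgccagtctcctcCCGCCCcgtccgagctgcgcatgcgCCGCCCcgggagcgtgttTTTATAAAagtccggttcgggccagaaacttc
ACKR3 (chr1:90203880-90203979, plus strand): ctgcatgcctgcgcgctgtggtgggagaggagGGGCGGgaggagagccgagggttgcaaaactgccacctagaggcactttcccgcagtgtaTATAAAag
CCL3 (chr11:83649379-83649478, minus strand): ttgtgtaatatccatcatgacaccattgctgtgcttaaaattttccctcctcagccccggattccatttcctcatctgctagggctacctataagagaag

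The promoters of CXCR4 and ACKR3 held TATAAA close to the start site, that of CXCL12 held a row of GC boxes, and that of CCL3 held neither. RefSeq windows of 300 bases (250 before to 50 after the start) were found for 7 of the 9 members, all but CXCL16 and CCL2. TATAAA was present in 3 of the 7, CXCR4, ACKR3 and CX3CL1, and in 13.6% of all 32851 windows. CCGCCC was present in 5 of the 7, all but CCL3 and CCR2, and in 35.7% of all windows. Neither the AP-1 motif (TGANTCA) nor the NF-kB motif was found in any of the 7, against 7.81% and 5.8% of all windows, on both strands. Neighbouring matches can share bases, as the last GC boxes of CXCL12 do and as the TATAAA matches of CXCR4 on its opposite strands do. These are matches of letters in a short window, not sites of binding.

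CXCL12 had genotype ratios in opposite directions at the sites, as did CCL2 and, by less, ACKR3. Above the lesion its value was 46.5 in mice labelled synj1+/+ and 58.5 in those labelled synj1+/-, 1.26-fold higher (log2 ratio 0.33). Below the lesion the values were 93.3 and 59.9, 1.56-fold lower (log2 ratio -0.64). The single high value was that of synj1+/+ below the lesion, and the other groups lay between 46.5 and 59.9.

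CXCR4, the signalling receptor, stood at 21.9 (synj1+/+) and 21.6 (synj1+/-) above the lesion. Below it the values were 35.8 and 22.7, 1.58-fold lower (log2 ratio -0.66). As for its ligand, the synj1+/+ segment below the lesion stood above the other 3 groups, which were within 21.6 to 22.7. ACKR3, the scavenging receptor, was lower in level and differed less, at 12.3 and 12.8 above the lesion and 15.6 and 11.3 below it (1.38-fold lower, log2 ratio -0.47). ACKR3 thus had its highest value in the same group, but did not reach 1.5-fold.

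CXCL16 was lower in the group labelled synj1+/- at both sites. Its values were 34.8 and 23.6 above the lesion, 1.48-fold lower (log2 ratio -0.56), and 59.6 and 31.6 below it, 1.88-fold lower (log2 ratio -0.91). Both values of synj1+/+ were thus higher than both values of synj1+/-. CCL3 had the same order. How many of all genes share it was not counted, so nothing is read from it. CXCR6, the receptor of CXCL16 on T cells and other lymphocytes, was not listed at either site.

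CX3CL1 was the 1 member that was higher in mice labelled synj1+/- below the lesion. The values were 74.3 and 81.7 above (1.10-fold higher, log2 ratio 0.14) and 62.4 and 77.9 below (log2 ratio 0.32). Its receptor CX3CR1 went the other way, from 118 to 99.1 above the lesion (log2 ratio -0.26) and from 133 to 100.2 below it (log2 ratio -0.41). Neither the ligand nor the receptor reached 1.5-fold at a site. The neuron markers listed beside CX3CL1 were higher below the lesion in 5 of 5 cases, where 6512 of all 12338 gene rows were higher. Their part in the ratio of CX3CL1 was not tested.

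CXCL14 had the highest level of the 8 members in every group and a small ratio. It was 280.04 and 243 above the lesion (log2 ratio -0.20) and 312 and 280.5 below it (log2 ratio -0.15). The order of levels was CXCL14, CX3CL1, CXCL12, CXCL16, CXCR4, ACKR3, CCL3 and CCL2 in 3 of the 4 groups. Below the lesion in synj1+/+, CXCL12 (93.3) stood before CX3CL1 (62.4), and CX3CL1 was followed closely by CXCL16 (59.6). Whether neighbours in this order differ beyond the spread between mice could not be told from combined values.

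The inflammatory ligands were the lowest members. CCL2 was 2.43 and 2.71 above the lesion (log2 ratio 0.16), and 5.67 and 2.90 below it, 1.95-fold lower (log2 ratio -0.96). With the added 1 removed, its FPKM below the lesion was 4.67 and 1.90, a log2 ratio of -1.29, so that the values as deposited understate the ratio of a gene this low. CCL3 was 7.45 and 6.83 above (log2 ratio -0.12), and 11.8 and 6.11 below, 1.92-fold lower (log2 ratio -0.94). Both genes had 1 high group, synj1+/+ below the lesion, and 3 groups close to each other. CCR1, a receptor of CCL3, was not listed.

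**Figure D1:**
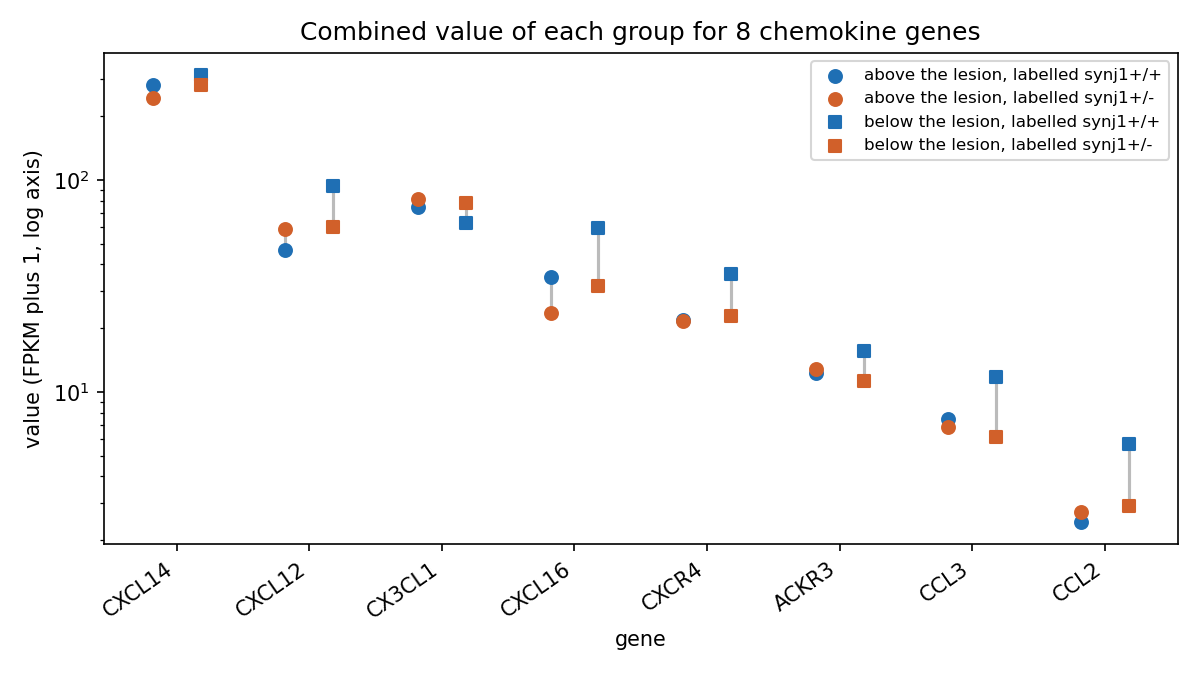
Value of each of the 8 listed members (x axis, ordered by the highest value) in the 4 groups, on a log axis of FPKM plus 1; circles are above and squares below the lesion, blue is labelled synj1+/+ and orange synj1+/-, and a grey line joins the genotypes of a site. Each point combines 3 libraries, with no error. The blue squares of CXCL12 (93.3), CXCL16 (59.6), CXCR4 (35.8), CCL3 (11.8) and CCL2 (5.67) stand apart from the other points of their genes.

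Counted together, 0 of the 8 members were 1.5-fold or more higher above the lesion and 0 were 1.5-fold or more lower, where 0.791% and 1.94% of all gene rows were past the same fold. Below the lesion, 5 of the 8 were 1.5-fold or more lower in the group labelled synj1+/- (CXCL12, CXCR4, CXCL16, CCL2 and CCL3), against 4.38% of all gene rows. None of the 8 was 1.5-fold or more higher there, against 1.16% of all. The median log2 ratio of the members was 0.02 above and -0.65 below the lesion, beside -0.0039 and 0.01 over all genes. Because the members were chosen with this comparison known, nothing is read from these shares.

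**Figure D2:**
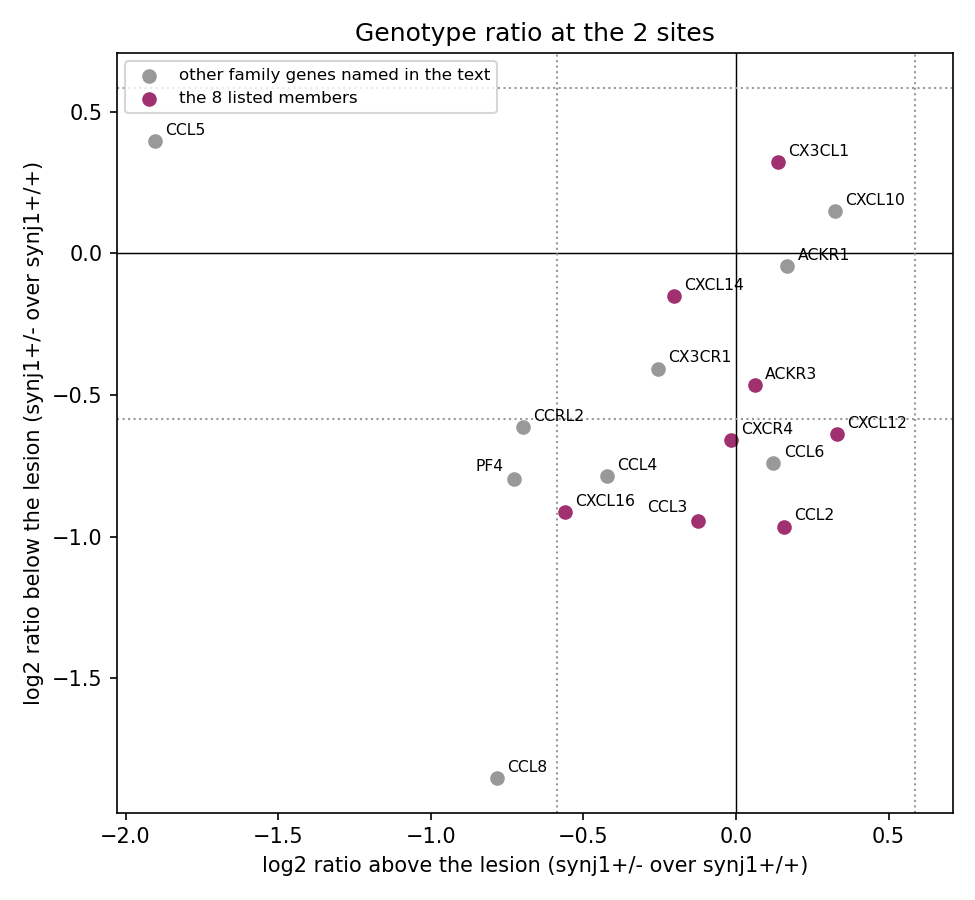
Log2 ratio of the group labelled synj1+/- over synj1+/+ above the lesion (x axis) and below it (y axis) for the 8 members (purple) and the other family genes named in the text and listed at both sites (grey), and dotted lines mark 1.5-fold. CXCL12 lies at 0.33 and -0.64, CXCL16 at -0.56 and -0.91, and CX3CL1 at 0.14 and 0.32; CCL5 and CCL8 lie farthest out.

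The same values were then set side by side between the sites. The median ratio of below over above over 12023 genes was 0.999 in synj1+/+ and 1.02 in synj1+/-. Among mice labelled synj1+/+, 5 of the 8 members were 1.5-fold or more higher below than above the lesion, against 3.24% of all genes. Among those labelled synj1+/- none of the 8 was, against 1.43% of all genes. CXCL12 was 2.01-fold higher below in synj1+/+ and 1.02-fold in synj1+/-. For CCL2 the ratios were 2.33 and 1.07, and for CXCR4 they were 1.64 and 1.05. CXCL16 kept a part of the difference, at 1.71 and 1.34. CCL3 was 1.58-fold higher below in synj1+/+ but at a ratio of 0.895 in synj1+/-, and ACKR3 was at 1.27 and 0.879. CXCL14 hardly differed between the genotypes in this respect, at 1.11 and 1.15. CX3CL1 was lower below than above in both, at 0.839 and 0.953. These ratios use the same 4 values per gene as the genotype ratios and are not independent of them.

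**Figure D3:**
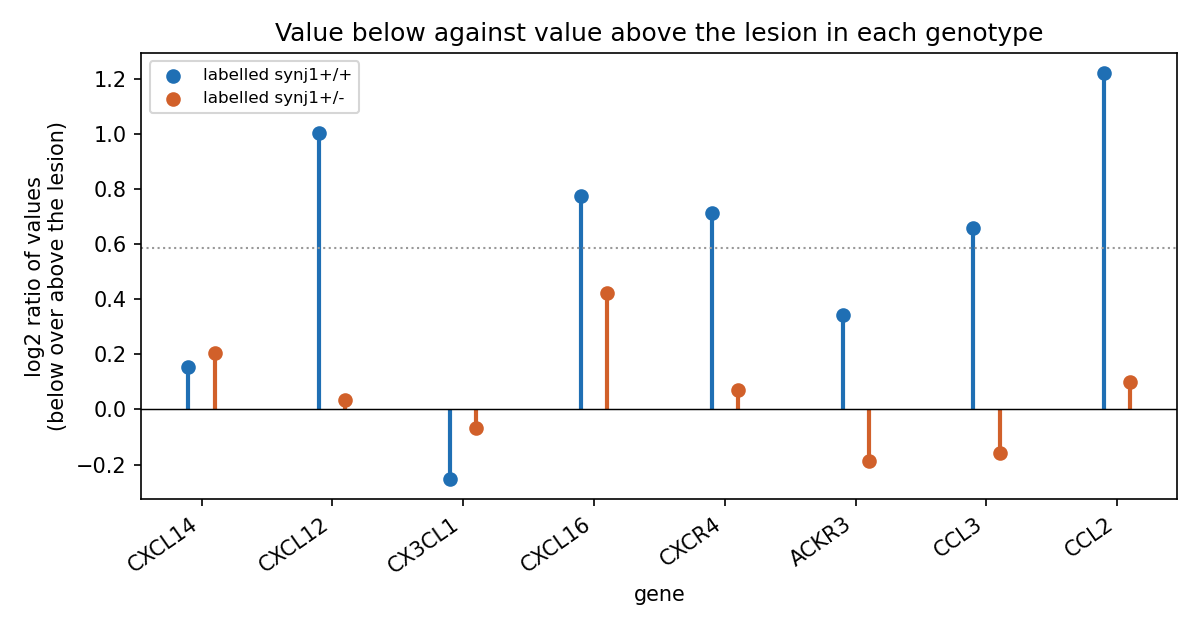
Log2 ratio of the value below over the value above the lesion for each member (x axis), in the group labelled synj1+/+ (blue) and in synj1+/- (orange); the dotted line marks 1.5-fold. The blue lines pass it for CXCL12, CXCL16, CXCR4, CCL3 and CCL2, with ratios from 1.58 to 2.33, and no orange line does.

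The rest of the family was taken from a list of mouse chemokines and receptors with 53 genes beside the members. Above the lesion, 14 of the 53 were listed, with 0 higher and 4 lower by 1.5-fold or more (CCL5, CCL8, PF4 and CCRL2), 0.791% and 1.94% of all gene rows being past that fold. These 4 were all below 10 in both groups there, PF4 going from 2.70 to 1.63. The same 14 genes had 0 higher and 5 lower below the lesion (CCL4, CCL6, CCL8, PF4 and CCRL2), with a median log2 ratio of -0.27, beside 1.16% and 4.38% of all gene rows. Of these 5, CCL8, PF4 (4.97 and 2.86) and CCRL2 were again below 10 in both groups. The ligand CCL4, which like CCL3 attracts monocytes and T cells, went from 17.9 to 10.4 (log2 ratio -0.79) and CCL6 from 24.1 to 14.4 (log2 ratio -0.74) below the lesion. Another 3 genes were listed below the lesion only, at low values, and may have been listed through the group where they were high, so they are not counted. The monocyte chemokine CCL7 went from 4.05 to 2.34 and the neutrophil chemokines CXCL1 and CXCL5 from 3.10 to 1.92 and from 2.87 to 1.64. CCL8, a monocyte chemokine, had the lowest ratio below the lesion, from 8.19 to 2.27 (log2 ratio -1.85). CCL5, made by T cells among others, had the lowest ratio above the lesion, from 6.21 to 1.66 (log2 ratio -1.90), and the opposite direction below it, from 5.92 to 7.80 (log2 ratio 0.40). The interferon-induced ligand CXCL10 was higher in synj1+/- at both sites, with log2 ratios of 0.32 above and 0.15 below.

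The atypical receptor ACKR1, found on venules and red cells, was between 22.1 and 30.4 in the 4 groups, with log2 ratios of 0.17 and -0.05. CCRL2, which presents chemerin, was lower at both sites, with log2 ratios of -0.70 above and -0.61 below the lesion. A further list held 22 genes of chemokine signal transduction and processing, among them G protein subunits, arrestins, receptor kinases, RGS proteins and shedding proteases. Of these, 19 were listed above and 16 below the lesion, and 0 were past 1.5-fold in either direction at either site. All gene rows were past it at 0.791% (higher) and 1.94% (lower) above, and at 1.16% and 4.38% below. With shares this small, a count of 0 in lists this short is not read as a result. Among the signal genes, ADAM10, a protease that sheds CXCL16 and CX3CL1, had log2 ratios of 0.07 and -0.26. PIK3CG, the phosphoinositide kinase of leukocytes downstream of chemokine receptors, had log2 ratios of -0.36 and -0.57.

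Cell type markers were set beside the members, and their part in the members' ratios was not tested. Below the lesion, the markers lower in mice labelled synj1+/- were 7 of 8 for macrophages and monocytes and 5 of 6 for microglia. For neutrophils they were 3 of 3 and for fibroblasts 7 of 7. They were 6 of 7 for endothelium (median log2 ratio -0.15, 1 past 1.5-fold) and 5 of 6 for astrocytes. Of the oligodendrocyte markers 1 of 2 was lower, and neuron markers were higher in 5 of 5 cases. Among all gene rows there, 47.2% were lower and 4.38% were lower by 1.5-fold or more. Of 12 macrophage and monocyte markers, 7 were listed at both sites, and their summed FPKM was 595 (synj1+/+) and 389 (synj1+/-) on the rostral side and 1416 and 653 on the caudal side. LYZ2 and CD68, the highest of them, had log2 ratios of -1.24 and -0.79 below the lesion. LYZ2 alone made up 1100 and 464 of the summed FPKM there. Counting each site's own listed macrophage and monocyte markers, 4 of 7 were lower above (3 past 1.5-fold) and 7 of 8 below (4 past 1.5-fold). Above the lesion, 51.0% of all gene rows were lower and 1.94% were lower by 1.5-fold or more. ARG1 was higher in synj1+/- at both sites (log2 ratios 0.38 and 0.18), and ADGRE1 was lower mainly above the lesion (-0.98 against -0.22 below). Of 9 microglia markers, 6 were listed at both sites, with summed FPKM of 571 and 431 above and 606 and 454 below. CSF1R, the highest of these markers, was lower at both sites (log2 ratios -0.41 above and -0.27 below).

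The fibroblast markers differed most between the genotypes below the lesion. Of 8 markers, 7 were listed at both sites, and their summed FPKM was 98.3 and 80.7 above and 519 and 113 below the lesion. The proteoglycan gene DCN went from 10.6 to 7.54 above and from 139 to 19.8 below the lesion, and FN1 (fibronectin), listed above only, from 230.3 to 159. PDGFRA, which oligodendrocyte progenitors also express, had smaller log2 ratios of -0.13 and -0.31. It made up 62.6 and 57.3 of the summed FPKM above the lesion. All 8 markers were lower above the lesion, with a median log2 ratio of -0.50, where 51.0% of all gene rows were lower. The group with the high sum was the synj1+/+ segment below the lesion, which also had the highest value of every listed member but CX3CL1. The summed markers of macrophages and monocytes, neutrophils, endothelium and microglia were highest in that group too. Those of astrocytes, neurons and oligodendrocytes were not. What these shared orders mean was not tested.

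Neutrophil markers were low. Only S100A8 and S100A9 of the 6 were listed at both sites, with summed FPKM of 3.87 and 4.19 above and 18.8 and 11.9 below. S100A8 was 6.41 and 3.04 below the lesion, and S100A9 was 14.4 and 10.9. None of 7 T cell markers and 4 B cell markers was listed at a site. The 7 endothelial markers, all listed, summed to 624 and 586 above and 758 and 653 below. LY6C1 was the highest of them, at log2 ratios of -0.22 and -0.31, and SLCO1A4 had log2 ratios of 0.10 and -0.10. The 6 astrocyte markers summed to 17243 and 14104 above and 15353 and 11948 below, with GFAP (log2 ratios -0.29 and -0.39) and AQP4 (-0.29 and -0.40) the highest. For the neuron markers, 5 of 6 listed at both sites summed to 6992 and 8004 above and 6933 and 8892 below. SNAP25 had log2 ratios of 0.25 and 0.39, and RBFOX3, listed above only, was 1486 and 1781. Of 6 oligodendrocyte markers 2 were listed, MOBP (log2 ratios -0.05 and -0.09) and MOG (-0.18 and 0.17), with sums of 11196 and 10799 above and 10570 and 9953 below.

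**Figure D4:**
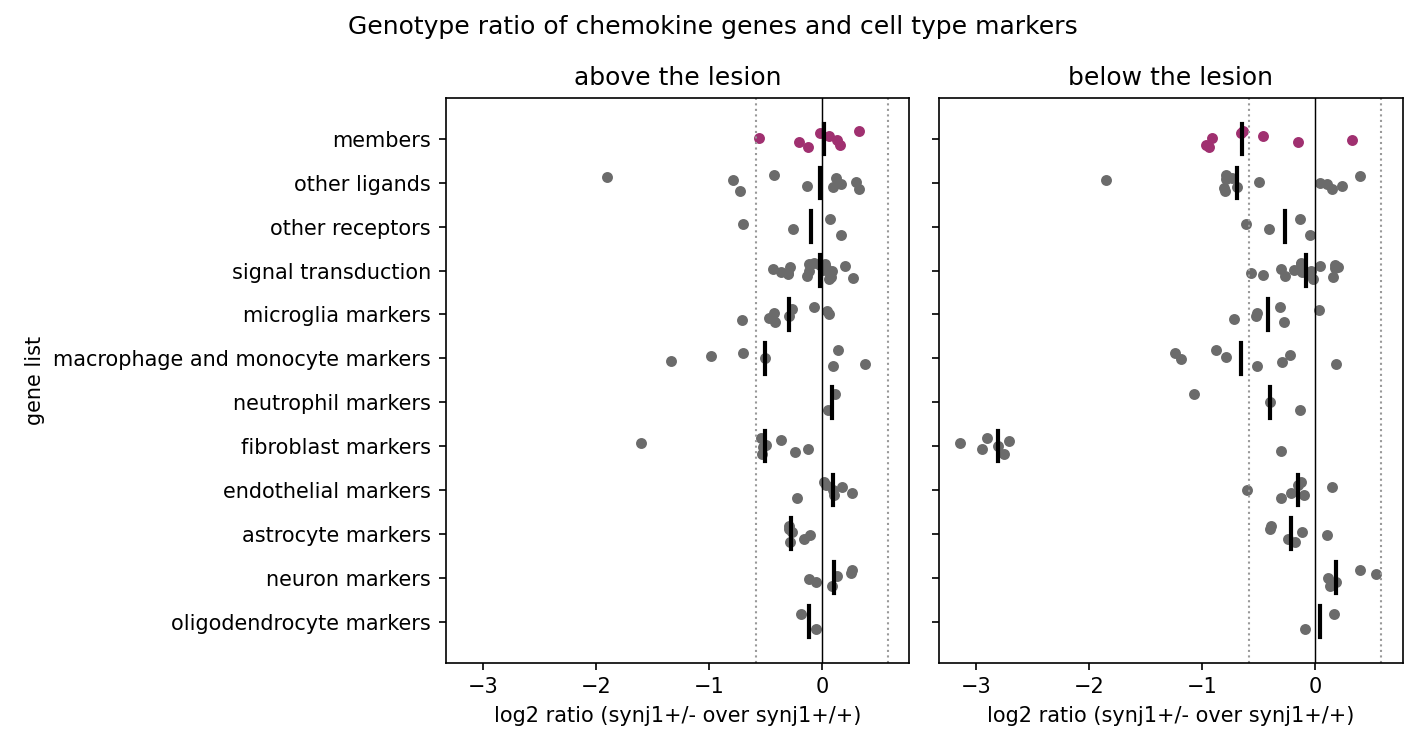
Log2 ratio of the group labelled synj1+/- over synj1+/+ (x axis) for the genes of each list (y axis), above the lesion on the left and below it on the right; each point is a gene, the black bar is the median of the genes listed at that site (other ligands include 3 listed below only), and dotted lines mark 1.5-fold. The members center on 0.02 above and -0.65 below the lesion, macrophage and monocyte markers on -0.50 and -0.65, and fibroblast markers on -0.50 and -2.81.

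Genes with a pattern most like that of CXCL12 were sought by the distance between the pairs of log2 ratios above and below, over 2 ratios from 4 groups, among 9632 other genes with a value of at least 10 in one group at each site. The nearest were NR2F2 (distance 0.05, log2 ratios 0.35 and -0.59), SCNM1 (0.09, 0.41 and -0.60), SLC12A7 (0.09, 0.27 and -0.57), SMIM5 (0.10, 0.27 and -0.56) and SEC11A (0.10, 0.27 and -0.55). NR2F2, a nuclear receptor known for its role in veins, was 33.6 and 43.0 above the lesion and 50.7 and 33.6 below it. No other member was among the 5.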

How the data were processed

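Total RNA of spinal cord segments was made into TruSeq libraries. Per the labels and the study's methods, the authors reduced the reads of a site at random to its smallest library, aligned them with STAR 2.5.4b and used Cuffdiff 1.3.0 of cufflinks with upper quartile normalization. The submitters' processing notes name GRCm38.p6, and the annotation is not given in the sources used here. The deposited FPKM values combine the libraries of a group, with 1 added: the lowest value is exactly 1, and the reading as FPKM rests on the stated tools. Depth per library was not read from the table, which has 0 columns of single samples.

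Values were used as deposited. The table also holds the authors' fold changes, p-values and q-values, and a shorter list holds fold changes and p-values only; none was used. Log2 ratios of synj1+/- over synj1+/+ were computed per site and counted at 1.5-fold, beside all gene rows. Cell type and pathway lists, and the rule for named genes, were written together with the choice of tests. That rule takes the members, SYNJ1 and APOE, family genes past 1.5-fold with a value of at least 10 (up to 8 per site), the 2 highest markers of each list and the 5 genes nearest to CXCL12. CX3CR1 was added as the partner of a member, and ACKR1, CCRL2, CCL5, CCL7, CCL8, PF4, CXCL1, CXCL5, CXCL10, ADAM10, PIK3CG, ARG1, ADGRE1 and PDGFRA after their values were seen; some genes the rule takes are not reported here. Members and lists were chosen with earlier results of these data known. The alternatives were 0.1 in place of the added 1, 10 added, centring on the median gene, a fold of 2, a lower fold (0.32 on the log2 scale) and a minimum value of 10. The ratio calculation returned known ratios that had been multiplied into the real values, which checks its arithmetic only. Python 3.11.15, numpy 2.4.6, pandas 2.3.3 and matplotlib 3.10.9 were used.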

Additional observations from a re-analysis of the deposited data

How the results depend on the processing

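Each value combines 3 libraries and no test was run here, so results without a single library could not be computed. No paired analysis was possible because the table holds no values of single samples. Below the lesion, the 5 members lower by 1.5-fold or more became 1 (CXCL16) with 10 added to every value and 0 at a fold of 2, and the median log2 ratio of the members went from -0.65 to -0.36 with 10 added. Above the lesion, a lower fold (0.32 on the log2 scale) gave 1 higher member (CXCL12) and 1 lower (CXCL16), where 1.5-fold gave none. Between the sites, in a comparison whose alternatives were chosen after seeing the data, the 5 members higher below in synj1+/+ became 2 with 10 added and 2 at a fold of 2, and the 0 in synj1+/- became 1 (CXCL16) at that lower fold. Of 48 member ratios under other settings, 39 moved by less than 0.1 on the log2 scale, 9 by more, and 0 changed sign.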
